A study of Mus musculus with 5 samples.

Results

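The genes described here are 10 genes of mouse embryonic stem cells, either expressed in cells that resemble the 2-cell embryo or members of gene families repeated in clusters: Tcstv3, AF067061, BC147527, Gm5662, Pramel19, Eif4a3l1, Zfp352, Tmem92, Usp17lc and Tdpoz3. They were taken by symbol from the platform annotation, and each had 1 probe set of its own, so the description rests on 10 of 34760 probe sets, or 10 of 19937 genes. The genes were picked with their values on these arrays in view, so the values are a description of the picked genes and no test was made on them. The experiment was an RNA immunoprecipitation with microarray readout (RIP-chip) of MKRN1, a makorin protein with a RING domain and zinc fingers, in R1 cells, a mouse embryonic stem cell line of 129X1 x 129S1 background.

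The 5 arrays come from 2 lysates. From cells labelled as constitutively expressing the FLAG:MKRN1 fusion from a pCAGGS construct there are 3 arrays, an anti-FLAG RIP, a RIP with IgG antibodies and the input, which is total RNA of the same lysate. From cells carrying pCAGGS with FLAG alone (FLAG:Ctrl) there are 2 arrays, an anti-FLAG RIP and the input. All cells were G418-resistant, thawed on fibroblast feeders and then expanded without them in LIF and serum, and no other treatment was given. Each construct is represented by 1 lysate, so the construct, the clone that carried it and the culture it came from cannot be told apart. There is 1 array per group and no replicate error, so no p-value is given and a difference between arrays has no replicate check.

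Values are log2 signals as the authors deposited them, and a log2 difference of 1 is a 2-fold difference. Probe sets were averaged over the 5 arrays, and the middle of those averages, 5.76, served as the level filter. Values below it are called dim. Mkrn1 did not tell the lysates apart: its value was 11.90 in the anti-FLAG RIP, 11.99 in the IgG RIP and 11.71 in the input of the lysate labelled FLAG:MKRN1, against 12.20 in the anti-FLAG RIP and 11.80 in the input of the lysate labelled FLAG:Ctrl. The sources used here do not tell whether its probe set would detect the fusion. The lysates are therefore called MKRN1-labelled and Ctrl-labelled, and every direction between them rests on the labels. All 12 listed stem cell markers lay above the level filter on every array. Of these, Klf4 separated the lysates 2-fold, at 7.22, 7.76 and 7.65 in the anti-FLAG RIP, the IgG RIP and the input of MKRN1-labelled lysate, against 8.78 and 8.82 in the anti-FLAG RIP and the input of Ctrl-labelled lysate. Of 11 fibroblast markers, 5, 4 and 4 lay above it in the anti-FLAG RIP, the IgG RIP and the input of MKRN1-labelled lysate, and 5 and 6 in the anti-FLAG RIP and the input of Ctrl-labelled lysate. Their mean log2 values ran from 5.73 to 5.89 in MKRN1-labelled lysate and from 5.78 to 5.86 in Ctrl-labelled lysate. The part of other cells in the results was not tested.

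As background, cultured mouse embryonic stem cells include a small and changing fraction of cells that switch on genes normally active when the embryonic genome is first transcribed, at the 2-cell stage. The transcription factor DUX drives this programme, DPPA2 and DPPA4 act upstream of it, and the Zscan4 and Tcstv genes and the long terminal repeats of the MERVL retrotransposon are its best known products. Many of these genes lie in recently duplicated clusters with near-identical copies, so a probe set can pick up more than the gene it is named for. In such bulk RNA, more cells in this state and more RNA per cell cannot be told apart.

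The regions just before the annotated starts are shown first. Any relation between these regions and the array values was not tested. Promoter sequences credited to RefSeq, assembly GRCm38.p6, were at hand for 6 of the 10 members: AF067061, BC147527, Eif4a3l1, Zfp352, Pramel19 and Usp17lc. The 100 bases before the start are printed for the 3 members that share a stretch of letters and for Pramel19, which has none of it. The capitals mark ACACACCTTTAAT, on either strand, and TATAAG.
AF067061, chr13:120262995-120263094, plus strand: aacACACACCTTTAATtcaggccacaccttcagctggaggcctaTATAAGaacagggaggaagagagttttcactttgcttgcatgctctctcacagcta
Eif4a3l1, chr6:136327439-136327538, plus strand: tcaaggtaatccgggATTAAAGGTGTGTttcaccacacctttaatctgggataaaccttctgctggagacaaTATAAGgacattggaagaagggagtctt
Zfp352, chr4:90218720-90218819, plus strand: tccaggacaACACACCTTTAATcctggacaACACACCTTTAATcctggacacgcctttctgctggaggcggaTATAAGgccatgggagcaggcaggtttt
Pramel19, chr4:101940307-101940406, plus strand: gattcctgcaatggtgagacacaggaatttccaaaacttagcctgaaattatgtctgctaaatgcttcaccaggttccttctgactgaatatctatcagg

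ACACACCTTTAAT is the longest run of bases that at least 3 of these 6 promoters share on either strand in the 250 bases before the start, and it was found from the members themselves. It occurred in AF067061, Eif4a3l1 and Zfp352, and in 0.128% of all promoters (42 of 32851). The string TATAAG, picked after these promoters had been read, was found in the same 3 members and in 6.65% of all promoters. Its first base lies 28 bases before the start in both Eif4a3l1 and Zfp352 and 56 bases before it in AF067061. TAATCC, the core recognised by OTX-type homeodomain proteins, occurred on either strand in these 3 and in BC147527, and in 6.25% of all promoters. It overlaps the shared run wherever that run is followed by CC, as in Zfp352. Of 41 genes that hold the shared run, only 11 have a probe set of their own, 3 members and 8 others. The rest could not be read here. Among the 8 are Tdpoz1 and Tdpoz8, which carry the family name of the member Tdpoz3. Between the inputs 0 of the 8 lay 2-fold apart. Of these 8, 5 were dim on all 5 arrays, so little can be read from them. A match is a description of letters and not of a binding site.

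A member was taken to separate the lysates where all 3 arrays of MKRN1-labelled lysate lay on the same side of both arrays of Ctrl-labelled lysate, and the gap is the distance between the nearest values of the 2 lysates. With a gap of at least 2-fold, 6 of 10 members separated, all with the MKRN1-labelled lysate higher: AF067061, Gm5662, Pramel19, Eif4a3l1, Tcstv3 and BC147527. Another 3, Zfp352, Tmem92 and Usp17lc, separated with a smaller gap, and Tdpoz3 overlapped. Over all genes, 0.0401% (8 genes) separated with such a gap in this direction and 0.0201% in the other, 0.0602% in all. With any gap, 9 members separated in this direction, against 3.49% of all genes, and 3.9% of all genes separated in the other. Nothing is read from the members' share, since these values chose them.

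**Figure D1:**
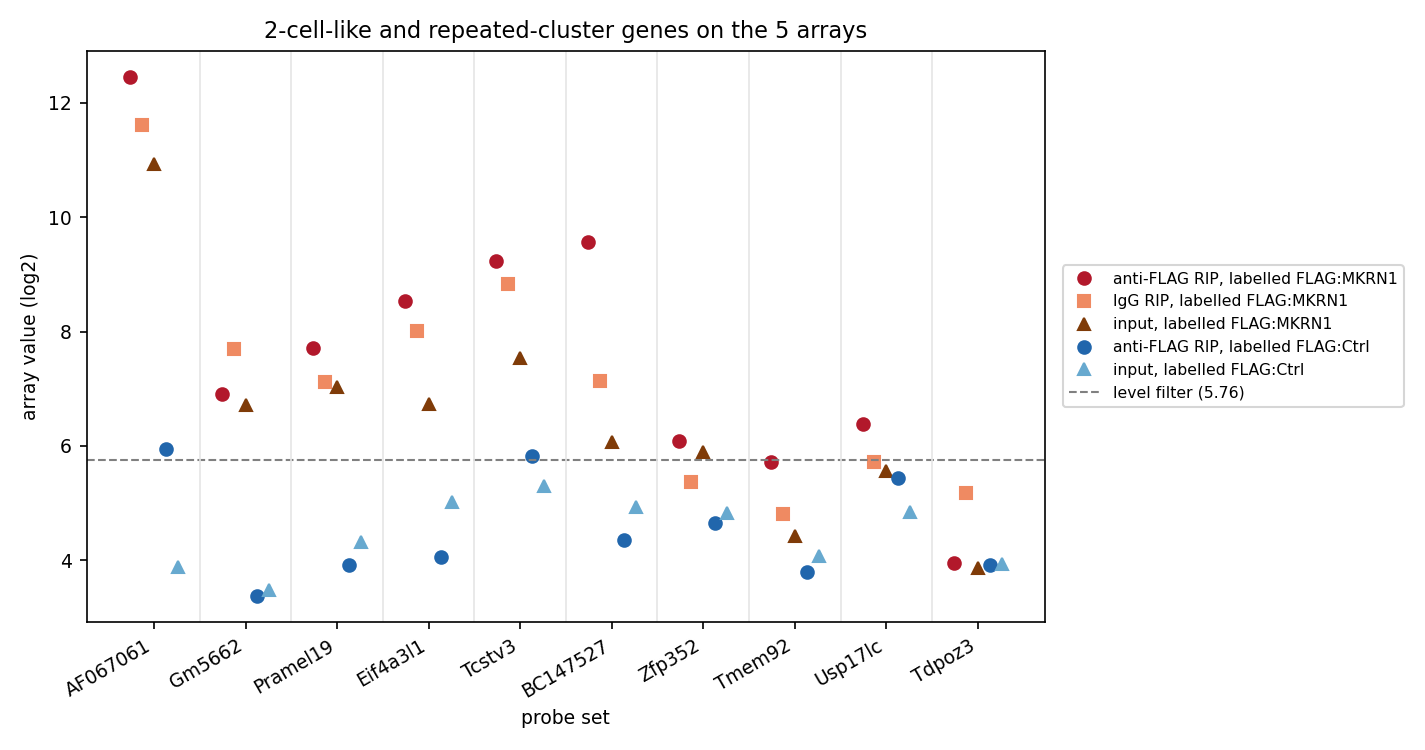
Log2 array value (vertical axis) of the probe set of each member (horizontal axis) on the 5 arrays, 1 point per array with no error bar, as there is 1 array per group. Values are to be compared within a probe set. From AF067061 to BC147527 the 3 arrays labelled FLAG:MKRN1 lie above both arrays labelled FLAG:Ctrl, by gaps of 4.99 down to 1.14, and the dashed line marks the level filter of 5.76.

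The Tcstv region comes first. Tcstv3 belongs to a gene group named for its variable expression at the 2-cell stage, and RefSeq places AF067061 and BC147527 beside it at the end of chromosome 13, with Gm52032 and Gm39470 between AF067061 and BC147527 and Gm20900 between BC147527 and Tcstv3. AF067061 read 12.46 in the anti-FLAG RIP, 11.62 in the IgG RIP and 10.94 in the input of MKRN1-labelled lysate, against 5.94 in the anti-FLAG RIP and 3.88 in the input of Ctrl-labelled lysate. The lysates were far from overlapping, and its gap of 4.99 ranked 1 among all genes. The inputs differed by 7.06 on the log2 scale, or 133-fold, and by 5.18, or 36.2-fold, with the dim Ctrl-labelled value raised to the level filter. Tcstv3 read 9.23, 8.84 and 7.54 in the anti-FLAG RIP, the IgG RIP and the input of MKRN1-labelled lysate, against 5.83 and 5.29 in the anti-FLAG RIP and the input of Ctrl-labelled lysate. Its lysates did not overlap, with a gap of 1.71, and both RIPs of MKRN1-labelled lysate lay above the input. BC147527 read 9.57, 7.14 and 6.06 in the anti-FLAG RIP, the IgG RIP and the input of MKRN1-labelled lysate, against 4.35 and 4.93 in the anti-FLAG RIP and the input of Ctrl-labelled lysate. It was dim on both arrays of Ctrl-labelled lysate and highest by far in the anti-FLAG RIP of the other. The inputs differed by 1.14 for BC147527 and by 2.25 for Tcstv3, 2.20-fold and 4.76-fold. With dim values raised these differences were 0.31, no longer 2-fold, for BC147527 and 1.78 for Tcstv3. Whether the probe sets of these neighbours share probes is not known here.

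A pair of members resemble translation factors. Gm5662 is annotated together with Eif1a on further probe sets, Eif1a encoding an initiation factor of the eIF1A type, and lies in a cluster on chromosome 12. Its values were 6.90 in the anti-FLAG RIP, 7.70 in the IgG RIP and 6.72 in the input of MKRN1-labelled lysate, against 3.38 in the anti-FLAG RIP and 3.48 in the input of Ctrl-labelled lysate. Both Ctrl-labelled values were dim and close to each other, and the gap of 3.24 was set by the inputs, 9.45-fold apart. With dim values raised to the filter the inputs differed by 0.96. Eif4a3l1 is a copy named for Eif4a3, the RNA helicase of the exon junction complex. It read 8.53, 8.01 and 6.74 in the anti-FLAG RIP, the IgG RIP and the input of MKRN1-labelled lysate, against 4.06 and 5.01 in the anti-FLAG RIP and the input of Ctrl-labelled lysate. Its lysates lay apart by 1.72, and by 0.98 with dim values raised to the filter. Single-gene probe sets of the related genes read otherwise: the inputs of MKRN1-labelled and Ctrl-labelled lysate read 11.51 and 11.50 for Eif4a3, and 9.59 each for Eif1a. Probe sets that Gm5662 and Eif1a share, described below, did not all read like the one named for Eif1a alone.

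Pramel19 belongs to the PRAME-like family, whose genes encode leucine-rich repeat proteins of germ cells and early embryos, and has Pramel18 as its neighbour. It read 7.71 in the anti-FLAG RIP, 7.11 in the IgG RIP and 7.03 in the input of MKRN1-labelled lysate, against 3.92 in the anti-FLAG RIP and 4.32 in the input of Ctrl-labelled lysate. The MKRN1-labelled values lay close together and the gap was 2.70, which makes the inputs 6.52-fold apart, or 2.42-fold with dim values raised.

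The other members are mostly dim. Zfp352, a zinc finger gene known from the 2-cell embryo, read 6.08, 5.37 and 5.90 in the anti-FLAG RIP, the IgG RIP and the input of MKRN1-labelled lysate, against 4.65 and 4.83 in the anti-FLAG RIP and the input of Ctrl-labelled lysate. Its inputs differed by 1.07, of which 0.14 was left with dim values raised, and the lysates lay apart by 0.55. Tmem92, a transmembrane protein gene, read 5.71, 4.80 and 4.42 in the MKRN1-labelled arrays in the same order, against 3.80 and 4.07 in the Ctrl-labelled ones. All 5 of its values were dim, so its gap of 0.35 carries little. Usp17lc encodes DUB-2, a deubiquitinating enzyme, and read 6.38, 5.72 and 5.56 in the anti-FLAG RIP, the IgG RIP and the input of MKRN1-labelled lysate, against 5.43 and 4.84 in the anti-FLAG RIP and the input of Ctrl-labelled lysate. Its lysates nearly touched, with a gap of 0.13. Tdpoz3, of a clustered family with TRAF-like and POZ domains, read 3.96, 5.18 and 3.87 in the MKRN1-labelled arrays in that order, against 3.92 and 3.93 in the Ctrl-labelled ones. All 5 values were dim, and only the IgG RIP stood out, above the others.

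Between the inputs alone, 7 of 10 members were at least 2-fold higher in MKRN1-labelled lysate and 0 were lower, with a median difference of 1.43 and a range from -0.06 to 7.06. Differences were above 0 for 9 members and for 34.7% of all genes. Many genes showed no difference between the inputs, so the remaining genes did not all lie below 0. The 2-fold shares over all genes were 0.572% higher and 0.497% lower, around a median of 0.00. Between the anti-FLAG RIPs, which share no array with the inputs but come from the same lysates, 8 of 10 were at least 2-fold higher and 0 lower, with a median of 3.46. The background shares were 1.12% and 4.16%, and all 10 members lay above 0, as 56.3% of all genes did, although Tdpoz3 lay below 0 at -0.16 with the arrays centred on their medians. The difference was 6.52 (91.5-fold) for AF067061 and 3.41 for Tcstv3, and both values stood with dim values raised. It was 5.22 for BC147527, 4.46 for Eif4a3l1, 3.79 for Pramel19 and 3.52 for Gm5662. With dim values raised these 4 were 3.81, 2.77, 1.95 and 1.14 in that order, so the order of the members depends on values below the filter. Tmem92 lay 1.91 and Zfp352 1.43 higher, and neither was 2-fold apart with dim values raised. Usp17lc at 0.95 was short of 2-fold, and Tdpoz3 differed by 0.05.

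**Figure D2:**
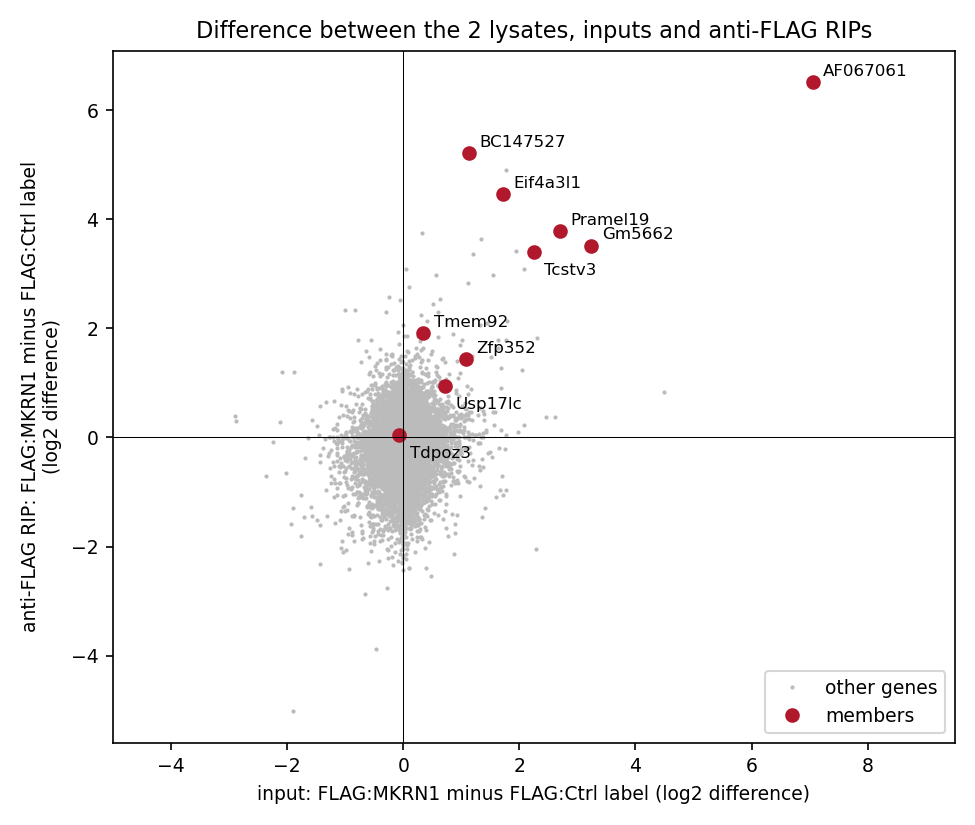
Each point is a gene: the horizontal axis is the log2 difference between the inputs and the vertical axis the log2 difference between the anti-FLAG RIPs, both MKRN1-labelled minus Ctrl-labelled. Members are red and named, and other genes are grey. AF067061 lies at 7.06 and 6.52, BC147527 is farther up than to the right (1.14 and 5.22), and Tdpoz3 lies in the cloud near 0.

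Against the IgG RIP of the same MKRN1-labelled lysate, 1 of 10 members was at least 2-fold higher in the anti-FLAG RIP and 1 was lower, with a median of 0.63, against background shares of 1.07% and 4.03% and a median of 0.05 over all genes. Above 0 lay 8 members and 56.5% of all genes. The higher one was BC147527, at 2.43 or 5.38-fold, and both its values lay above the level filter. Tdpoz3 was the lower one at -1.21, between dim values. The remaining 8 ran from -0.80 for Gm5662 to 0.92 for Tmem92, with AF067061 at 0.84 and Tcstv3 at 0.39. BC147527 was thus the 1 member at least 2-fold above both the anti-FLAG RIP of Ctrl-labelled lysate and the IgG RIP, which 0.732% of all genes were. With the trend with signal level removed, AF067061 passed as well, at 1.04 above the IgG RIP and 6.74 above the RIP of Ctrl-labelled lysate.

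Each RIP was also set against the input of its own lysate. In the anti-FLAG RIP of MKRN1-labelled lysate 5 of 10 members were at least 2-fold above input and 0 below, against 1.57% and 3.23% of all genes. All 10 members had differences above 0, from 0.10 for Tdpoz3 (-0.01 with the arrays centred) to 3.50 for BC147527, as 58.9% of all genes did. BC147527 was 11.3-fold above input, Eif4a3l1 3.46-fold, Tcstv3 3.24-fold and AF067061 2.87-fold. Tmem92 was 2.45-fold above it, but between dim values. In the IgG RIP of the same lysate 4 members were at least 2-fold above input and 0 below, against 0.798% and 0.321% of all genes, and 9 had differences above 0, as 36.2% of all genes did. The 4 were Tdpoz3 at 1.31, Tcstv3 at 1.30, Eif4a3l1 at 1.27 and BC147527 at 1.08, with Gm5662 just short at 0.98. Tdpoz3 lay between dim values, and its difference was 0 with these raised. With the arrays centred on their medians Gm5662 passed as well, at 1.05, which made 5 members. Tcstv3, Eif4a3l1 and BC147527 thus lay at least 2-fold above the same input array with either antibody. The share of all genes that did so with both was not counted, so nothing is read from these 3. In the anti-FLAG RIP of Ctrl-labelled lysate 1 member was at least 2-fold above input, AF067061 at 2.06, against 0.572% of all genes, and 0 were below, against 0.261%. Differences were above 0 for 3 members and for 36% of all genes. In each RIP some genes showed no difference from input, so the remaining genes did not all lie below 0. With dim values raised the difference of AF067061 was 0.18. The other 9 ran from -0.95 for Eif4a3l1 to 0.59 for Usp17lc, nearly all between dim values. The comparisons that use the same array are not independent of each other.

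**Figure D3:**
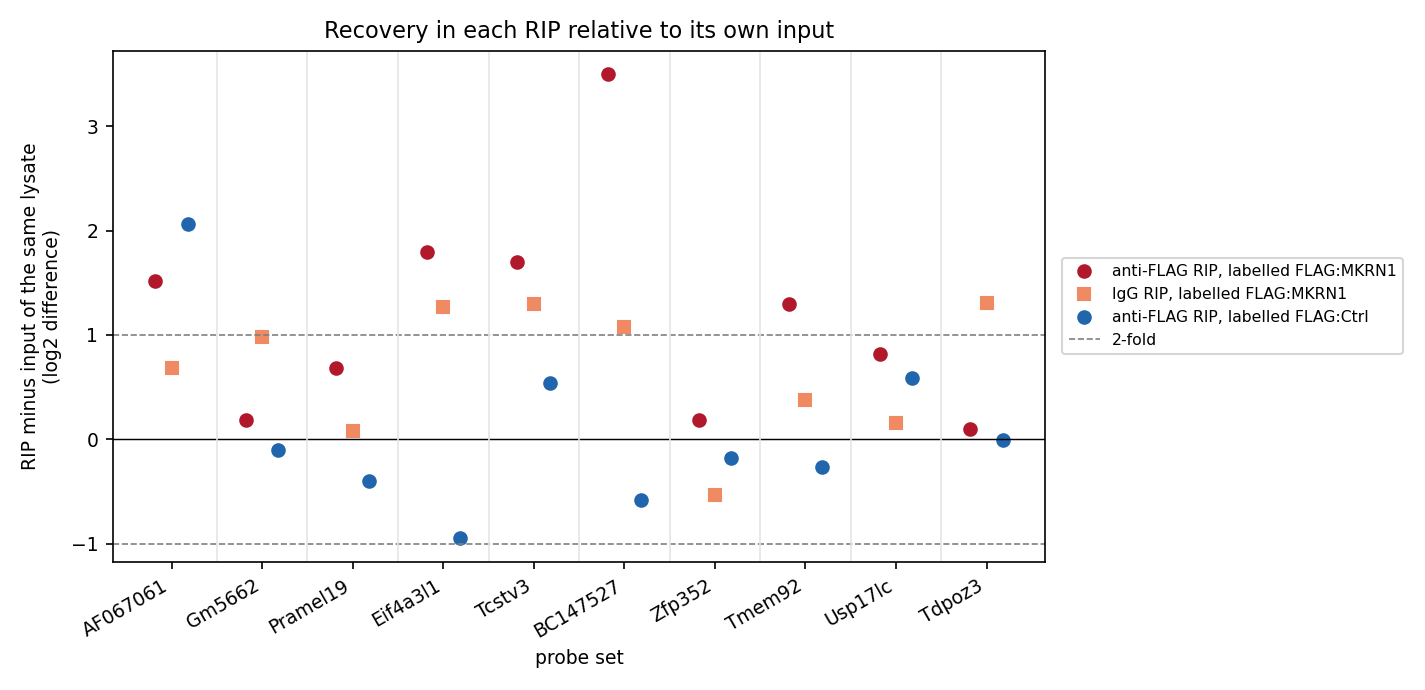
Log2 difference between each RIP and the input of its own lysate (vertical axis) for each member (horizontal axis), 1 point per RIP and no error bar, with 2-fold marked by dashed lines. BC147527 stands at 3.50 in the anti-FLAG RIP labelled FLAG:MKRN1 and at 1.08 in the IgG RIP, and in the RIP labelled FLAG:Ctrl only AF067061, at 2.06, passes 2-fold.

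Copies of the same families were measured on probe sets that the annotation gives to several genes at once, so no single gene can be named from them; they were looked up after the members' values had been seen. The Zscan4 genes, which encode SCAN-domain zinc finger proteins of the 2-cell state, had 3 such probe sets, each annotated to 5 genes. The first read 11.11 in the anti-FLAG RIP, 11.05 in the IgG RIP and 10.46 in the input of MKRN1-labelled lysate, against 6.89 in the anti-FLAG RIP and 6.72 in the input of Ctrl-labelled lysate. The gaps of the 3 probe sets were 3.58, 4.70 and 4.12 and the input differences 3.74, 5.25 and 4.75, and the pair of RIPs from MKRN1-labelled lysate lay within 0.17 of each other on each. Of the 3 probe sets shared by 8 genes, Gm5662 and Eif1a among them, those with gaps of 1.81 and 1.78 separated the lysates and the third, with a gap of 0.07, hardly did. The pair shared by Eif4a3l1 and Eif4a3 had input differences of -0.51 and -0.10, unlike the probe set of Eif4a3l1 alone. Between the anti-FLAG RIPs the differences of this pair were -0.99 and -1.04, against 4.46 for Eif4a3l1 alone. The probe set shared by 4 Usp17 genes had a gap of 0.37, near that of Usp17lc in being small. Its anti-FLAG RIP of MKRN1-labelled lysate lay 1.71 above the anti-FLAG RIP of Ctrl-labelled lysate. That RIP also lay 1.06 above the IgG RIP and 1.25 above the input of its own lysate.

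**Figure D4:**
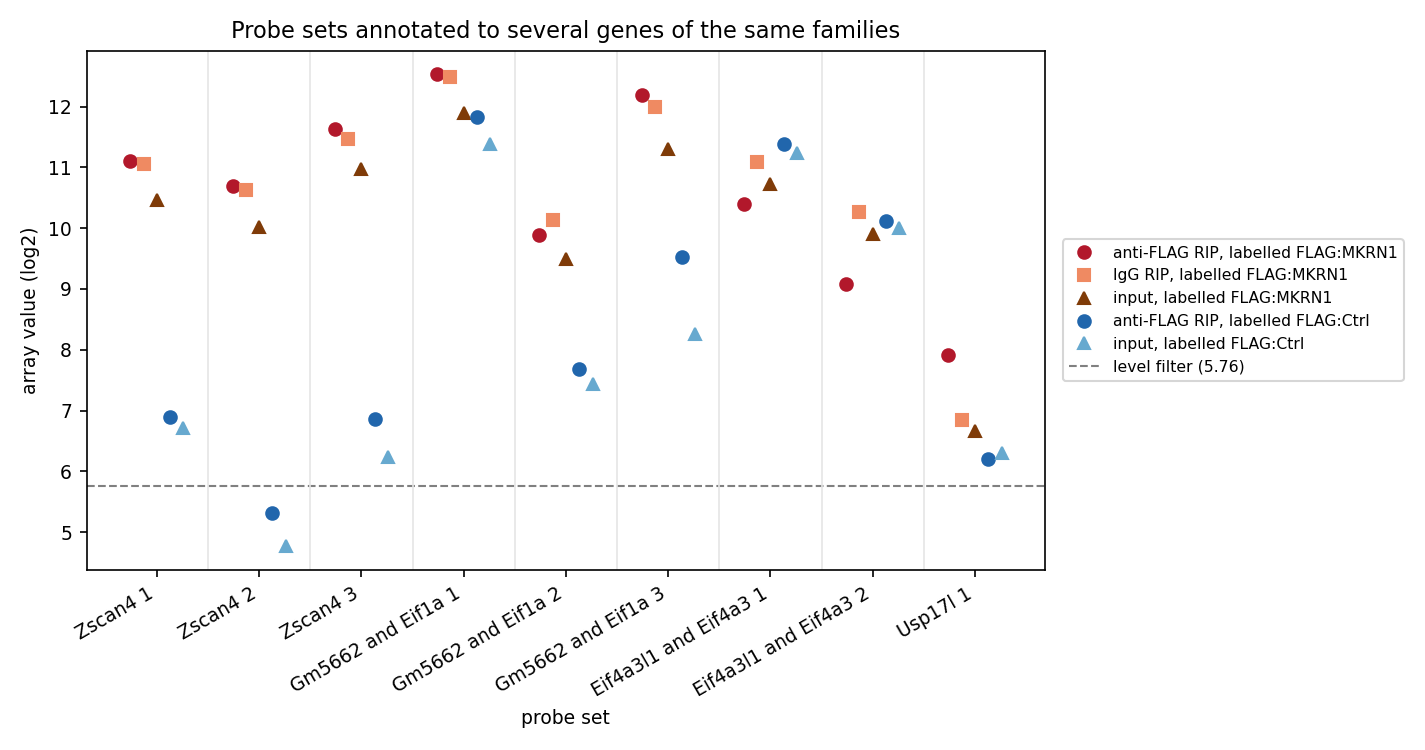
Log2 array value (vertical axis) of 9 probe sets annotated to several genes (horizontal axis) on the 5 arrays, 1 point per array and no error bar. The 3 Zscan4 probe sets read at least 10.02 on the arrays labelled FLAG:MKRN1 and at most 6.89 on those labelled FLAG:Ctrl, while those shared by Eif4a3l1 and Eif4a3 show no such gap.

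A list of 52 other 2-cell-like genes held 15 with a probe set of their own, 2 of them with a mean above the level filter, and 37 without. Of the 15, 0 were at least 2-fold higher or lower between the inputs and 0 separated the lysates 2-fold, with a median input difference of 0.00 and a range from -0.47 to 0.68. Between the anti-FLAG RIPs 2 of the 15 were at least 2-fold higher in MKRN1-labelled lysate and 0 lower, against 1.12% and 4.16% of all genes. They were Usp17lb at 1.46 and Alyref2, a copy named for the RNA export adaptor Alyref, at 1.29. Alyref2 was also 1.13 above the IgG RIP and 1.46 above the input of its own lysate. Usp17lb, a close copy of Usp17lc, was at the upper end: it read 6.94, 6.10 and 6.31 in the anti-FLAG RIP, the IgG RIP and the input of MKRN1-labelled lysate, against 5.49 and 5.62 in the anti-FLAG RIP and the input of Ctrl-labelled lysate. Tdpoz2 was at the lower end at -0.47, between dim values, and Usp17la and Pramel23 had input differences of 0.30 and 0.23, also dim. Of 9 markers listed for the 2-cell-like state, 4 had a probe set of their own. Tcstv3 and Zfp352 are described above, while Usp17la differed by 0.30 and Tdpoz1 by -0.11 between the inputs. Among probe sets of such markers, those of Tcstv3 and the shared Zscan4 ones separated the lysates 2-fold. Those of Zfp352, Usp17la and Tdpoz1 did not separate by that much. Members, lists and shared probe sets were all chosen with values of these arrays known. Nothing about the state of the cells is therefore read from them, and the 2-cell-like label is a name for the genes.

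Genes known to regulate the 2-cell-like state lay above the level filter throughout. Of 45 listed, 44 had a probe set of their own, and between the inputs 0 were at least 2-fold higher and 1 was lower, with a median of 0.02. The lower one was Myc, at 8.55 in the input of MKRN1-labelled lysate and 9.80 in that of Ctrl-labelled lysate, a difference of -1.25. Next in size came Sirt1 at 0.72, Pcgf6, a Polycomb group protein gene, at 0.56 and the deacetylase gene Hdac2 at 0.49. Dppa2 and Dppa4, the activators named above, differed by -0.07 and 0.21. The anti-FLAG RIP of MKRN1-labelled lysate was at least 2-fold lower for 7 of the 44 than the anti-FLAG RIP of Ctrl-labelled lysate, with a median of -0.51, against 4.16% of all genes. It was also lower for 8 than the IgG RIP of its own lysate (median -0.46, against 4.03% of all genes) and for 6 than its own input (median -0.41, against 3.23%). None of the 44 was 2-fold higher in these 3 comparisons, which share that array. All 44 lay above the level filter, while the shares over all genes include dim genes. The counts and shares were thus not taken at a like signal level, and nothing particular to these regulators is read from them. In 13 genes chosen as relatives of the members, 0 lay 2-fold apart between the inputs, and the median difference was -0.01. The differences farthest from 0 were 0.68 for Usp17lb, -0.47 for Tdpoz2, 0.35 for Spopl and 0.30 for Usp17la.

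Only 2 genes outside the members separated the lysates 2-fold with the MKRN1-labelled arrays higher, among genes represented by the probe set with the highest mean. 1700019A02Rik read 7.74, 8.43 and 7.15 in the anti-FLAG RIP, the IgG RIP and the input of MKRN1-labelled lysate, against 5.91 and 4.84 in the anti-FLAG RIP and the input of Ctrl-labelled lysate. Gm5039, a transcribed pseudogene annotated with the Eif1a family and lying near Gm5662, read 7.31, 7.35 and 5.59 in the same arrays of MKRN1-labelled lysate, against 3.94 and 4.40 in those of Ctrl-labelled lysate. Both had gaps near that of BC147527, at 1.23 and 1.20. Gm5039 was dim in the input of MKRN1-labelled lysate and on both arrays of Ctrl-labelled lysate. With dim values raised its gap was 0, while that of 1700019A02Rik was still 1.23. In the other direction, Cubn and Dab2, which encode the endocytic receptor cubilin and an endocytic adaptor, had gaps of -1.42 and -1.32. The growth factor gene Bmp4 had one of -1.14. Cubn was dim on all 3 arrays of MKRN1-labelled lysate, and its gap was -0.40 with dim values raised. Another probe set of Dab2, dim on all 5 arrays, did not separate the lysates. The list of 8 primitive endoderm markers, which includes Dab2, had mean log2 values from 5.82 to 5.93 on the 3 arrays of MKRN1-labelled lysate. The means were 6.40 and 6.25 in the anti-FLAG RIP and the input of Ctrl-labelled lysate. The input differences of this list ran from -1.75 for Dab2 to 0.04 for Gata4, with a median of -0.28.

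The likeness of other genes to AF067061 was measured as the Euclidean distance between the 5 values of each gene, centred on their mean. The 5 nearest of all genes were members, Gm5662 at 3.91, Tcstv3 at 4.30, Pramel19 at 4.36, Eif4a3l1 at 4.45 and BC147527 at 4.81. The next were 1700019A02Rik at 4.95, Gm5039 at 4.98, Snora7a at 5.07, Snora21 at 5.41 and Rnu3a at 5.48. The members were picked with these values in view, so nothing is read from their place among the nearest genes. The distance of AF067061 itself from a flat profile was 7.63, so these distances are not small. Snora7a differed from AF067061 in having the input above both RIPs: it read 9.40, 9.09 and 10.18 in the anti-FLAG RIP, the IgG RIP and the input of MKRN1-labelled lysate, against 8.56 and 5.69 in the anti-FLAG RIP and the input of Ctrl-labelled lysate. Snora21 and Rnu3a were highest in the anti-FLAG RIP of MKRN1-labelled lysate, at 11.09 and 9.63, against 6.52 and 6.65 in the IgG RIP of that lysate.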

How the data were processed

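RNA from 5 preparations was hybridised to 1 microarray each. The values used are the log2 signals the authors deposited for 34760 probe sets. That they are log2 was read from their range, 2.56 to 14.37, and their background correction and normalization were not given in the sources used here. Probe sets were named from the platform annotation: 21640 have 1 symbol, 1321 have several and 11799 have none, and 21553 of the first kind matched RefSeq (GRCm38.p6). Each of 19937 genes was represented by its single-gene probe set with the highest mean, and each member has 1 such probe set. Differences were taken between log2 values and counted at 2-fold, with no test, because each group has 1 array. Arrays were labelled from the sample titles. The members and the gene lists were chosen with earlier results of these data known. Named genes are all members, up to 4 genes of each of the lists of other 2-cell-like genes, regulators and relatives by input difference, the 5 other genes with the largest gaps and the 5 others nearest to AF067061. Genes named beside these, such as Klf4, Alyref2, Eif1a, Eif4a3, Dppa2, Dppa4 and the genes of shared probe sets, fall outside that rule and were chosen after their values were seen. Alternatives were array centring, quantile normalization, removal of the signal trend (lowess), raising dim values, a dim filter, other thresholds, the median over probe sets and leaving out arrays. Calculations used Python 3.11.15, pandas 2.3.3, numpy 2.4.6 and statsmodels 0.14.6, and were tested on simulated data. The number of arrays limits the precision.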

Additional observations from a re-analysis of the deposited data

Results flagged for a closer look

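For 7 members the anti-FLAG RIP lay above its own input in MKRN1-labelled lysate and below it in Ctrl-labelled lysate, and the difference between the lysates was not tested. The log2 differences from input were 3.50 and -0.58 for BC147527, 1.79 and -0.95 for Eif4a3l1, 1.30 and -0.27 for Tmem92 and 0.68 and -0.40 for Pramel19, each with MKRN1-labelled lysate given first. They were 0.18 and -0.10 for Gm5662, 0.18 and -0.18 for Zfp352 and 0.10 and -0.01 for Tdpoz3. For Tdpoz3 both signs turned with the arrays centred on their medians, to -0.01 and 0.07. All values of these 7 members in Ctrl-labelled lysate were dim. The same pair of signs was found in 26.1% of all genes, and 0 of these 7 members were 2-fold apart from input in both lysates.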

How the results depend on the processing

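No paired analysis was possible because each group has 1 array. The processing was varied over 10 settings, but the sign of each member's differences was compared only where the setting recalculates values. These were array centring, quantile normalization, removal of the signal trend, raising dim values and the median over probe sets. No difference of at least 2-fold changed sign under them. Raising dim values cannot reverse a sign, and the median leaves members with 1 probe set as they were. The same 6 members separated the lysates 2-fold after array centring, quantile normalization and removal of the signal trend. With dim values raised to the level filter, 3 members separated (AF067061, Pramel19 and Tcstv3), against 6. Then 3 members instead of 7 were 2-fold apart between the inputs, 1 instead of 2 between the anti-FLAG and IgG RIPs and 0 instead of 1 between the RIP and input of Ctrl-labelled lysate. With the signal trend removed, AF067061 passed 2-fold between the anti-FLAG and IgG RIPs (1.04). At 1.5-fold, 8 members differed between the anti-FLAG and IgG RIPs, of which Gm5662 and Tdpoz3 were lower in the anti-FLAG RIP. Between the RIP and input of Ctrl-labelled lysate 3 members differed, of which Eif4a3l1 was lower in the RIP. Between the inputs 1 other 2-cell-like gene differed at 1.5-fold. At 4-fold, 3 members separated, 4 differed between the inputs, 1 between the anti-FLAG and IgG RIPs, 1 between the anti-FLAG RIP and input of MKRN1-labelled lysate and 0 between the IgG RIP and input. The shares over all genes of such differences were taken at 2-fold only, so nothing is read from counts at 1.5-fold and 4-fold. A filter on dim probe sets left 5 of 8 between the anti-FLAG RIPs and 1 of 2 between the anti-FLAG and IgG RIPs. The anti-FLAG RIP difference of Tdpoz3 was 0.05 as deposited and -0.17 after quantile normalization. Centring moved the median of all genes to -0.15 from 0.06 between the anti-FLAG RIPs and to -0.13 from 0.05 between the anti-FLAG and IgG RIPs. Low signal limits Tmem92 and Tdpoz3, dim on all arrays, and the folds of members dim in Ctrl-labelled lysate.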

Other observations

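Gm7982 had several probe sets of its own that disagreed, and was looked at after its values had been seen. The probe set with the widest gap read 7.80 in the anti-FLAG RIP, 8.34 in the IgG RIP and 7.94 in the input of MKRN1-labelled lysate, against 3.85 in the anti-FLAG RIP and 3.43 in the input of Ctrl-labelled lysate, a gap of 3.95. Another had a gap of 1.54, while the one with the highest mean, which represents the gene elsewhere, did not separate the lysates 2-fold. Among 11799 probe sets with no gene name here, 6 separated the lysates 2-fold with MKRN1-labelled lysate higher, by up to 3.05, and 10 with it lower.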
